A study of Homo sapiens with 6 samples.

Results

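DNA damage response and repair genes were followed in A375, an established line of human melanoma cells, under treatment with leflunomide. The set holds 42 genes, chosen by symbol from damage kinases and checkpoint proteins, the MRN and BRCA complexes, the Fanconi anaemia proteins and the mismatch, nucleotide excision, end-joining and base excision pathways. Of the 42 genes, 39 had a row on the array and 27 passed the detection filter, which left 12345 genes tested in all. Cells were split and then grown for 3 days in medium with serum and either leflunomide at 25 µM, an inhibitor of dihydroorotate dehydrogenase in pyrimidine synthesis, or DMSO, the solvent control. Total RNA of 3 leflunomide and 3 DMSO samples was hybridised to Illumina bead arrays, 1 array per sample, and the labels do not say whether the samples came from separate cultures.

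Cells meet DNA damage with kinases that sense breaks and stalled forks (ATM and ATR), effector kinases that halt the cycle (CHEK1 and CHEK2) and pathways that each mend their own kind of lesion. Many proteins that act at the replication fork, among them MSH6, UNG, RAD54L and EXO1, are made mainly as cells enter S phase, when E2F factors switch on their genes. A smaller group is switched on by p53, the stress-induced transcription factor: XPC and DDB2, which find ultraviolet damage for nucleotide excision repair, and POLH, a polymerase that copies past such damage. The members were therefore separated into 3 p53-induced genes, 18 S-phase genes and 21 other repair genes.

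The third leflunomide array stood apart from the rest, so the comparison was made with all 6 arrays and with the 5 arrays without it. Some genes are given for the 5 arrays only. Its correlation with the other arrays was 0.89 to 0.902 over genes, against 0.988 to 0.997 among those 5, and its mean signal was 128.9 units against 261.7 to 370.5. Of the 27 tested members, 3 lay more than 1 log2 unit from the mean of leflunomide 1 and 2 on that array, or 11.1% of the members against 12.7% of all genes. NBN, which holds the MRN complex at breaks, stood at -4.11 log2 units from that mean. FANCE, a subunit of the Fanconi core complex, had 4.33 there and a mean of 7.34 on leflunomide 1 and 2, and XRCC2, a homologous recombination protein, stood 1.70 above that mean. The median distance over the members was 0.47 on leflunomide 3, whereas leflunomide 1 and 2 differed by a median of 0.08. The cause of the difference was not tested. Of 9 melanocyte lineage markers, SOX10 and S100A1 exceeded background on all 6 arrays, PMEL was above background on 1 leflunomide array and 3 DMSO arrays and MITF on 1 leflunomide array and no DMSO array, while MLANA, TYR, DCT, S100B and TYRP1 were above background on none. PMEL fell by 1.06 ± 0.14 in all 6 arrays (limma, adjusted p = 0.034) and was at least 2.13-fold lower in the 5 arrays (adjusted p = 1e-05). Of the leukocyte markers PTPRC and CD3E were above background on no array, LST1 was above it on 1 leflunomide and 1 DMSO array, and CD14, the 1 tested, differed by 0.22 in the 5 arrays (limma, adjusted p = 0.13). Of 5 fibroblast markers COL1A2 and COL3A1 were above background on no array, and COL1A1, above it on 2 leflunomide arrays and no DMSO array, differed by 0.22 in a fit without a detection filter (limma, adjusted p = 0.077). The summed raw signal of the fibroblast markers was 212.1 to 354.5 on leflunomide arrays and 388.0 to 442.1 on DMSO arrays. That of 5 keratinocyte markers was 560.9 to 1763 on leflunomide arrays and 2145 to 3003 on DMSO arrays. These sums include background and were not normalized between arrays. The lowest sum of both lists was on leflunomide 3, where control beads averaged 36.83 units, against 56.48 to 59.61 on the other arrays. Of the keratinocyte markers KRT5, KRT1 and DSG3 were above background on no array. From these lists the detection filter passed DCN, LUM, KRT14 and KRT10. Each fell in the 5 arrays (limma, adjusted p = 0.00041 to 0.014), where 10.2% of all genes were called lower. DCN was above background on 3 DMSO arrays and, of the leflunomide arrays, on the third alone. Its detection p-values were no ranks among control beads. With all 6 arrays none of these genes passed (limma, adjusted p = 0.081 to 0.67), and KRT14 was highest on leflunomide 3, at 6.84. The part of the markers in the results below was not tested.

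With all 6 arrays, no repair gene passed an adjusted p of 0.05 in limma, and none in an ordinary two-sample test, whereas 1.08% of all genes tested did. XPC, DDB2 and MSH6 had an unadjusted p under 0.05, which is 3 of 27 members, against 16.9% of all genes. Without leflunomide 3, 6 of 27 members passed, or 22.2%, against 19.9% of all genes, so the share of repair genes called was close to that of the array as a whole. In these 5 arrays XPC and DDB2 fell, 2 of 27 against 10.2% of all genes called lower, and MSH6, FANCE, RAD54L and UNG rose, 4 of 27 against 9.66% called higher. In an ordinary two-sample test on the 5 arrays all 6 calls were lost, and 7 of 12345 genes passed. The lost calls given below for single genes come on top of that test. Scaling the 5 arrays to a common median, which put the median of all genes at -0.19, left 2 members called lower, XPC and DDB2, and 0 higher. The median difference between leflunomide and DMSO over the 27 members was 0.06 on the log2 scale with 6 arrays and 0.10 with 5, against -0.002 and 0.005 over all genes. The leflunomide and DMSO arrays did not overlap for 9 of 27 members with 6 arrays, where 29.7% of all genes did not, and for 18 of 27 with 5 arrays, where 48.4% did not.

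**Figure D1:**
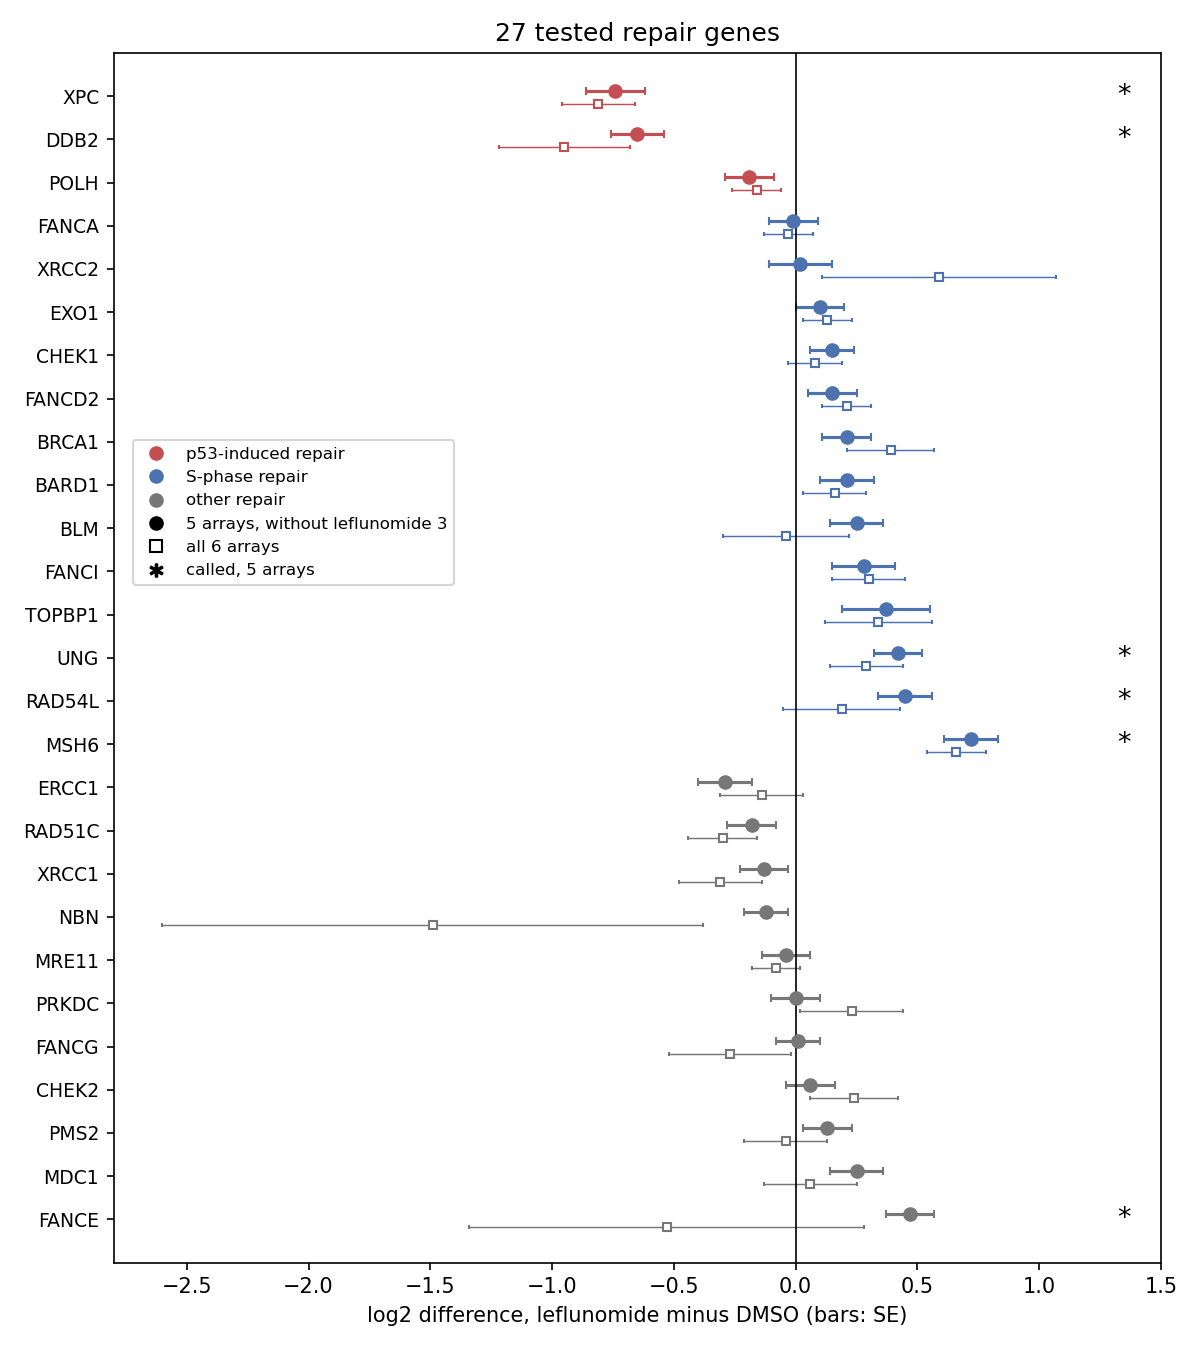
Log2 difference between leflunomide and DMSO (x axis, bars show the SE) for the 27 tested repair genes (y axis), by class, in the 5 arrays without leflunomide 3 (filled circles) and in all 6 arrays (open squares). Stars mark the 6 genes with a limma adjusted p under 0.05 in the 5 arrays: XPC and DDB2 lie left of 0, and UNG, RAD54L, MSH6 and FANCE lie right of it.

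For each of the 3 p53-induced genes every leflunomide array lay below every DMSO array. Of all genes, 29.7% did not overlap in either direction with 6 arrays. XPC and DDB2 fell past the threshold in the 5 arrays, where 10.2% of all genes were called lower. XPC, the protein that opens global nucleotide excision repair by binding distorted DNA, had normalized log2 intensities of 9.75, 9.68 and 9.53 on the 3 leflunomide arrays, against 10.19, 10.64 and 10.54 on the 3 DMSO arrays. The groups did not overlap, and leflunomide 3 was close to the other leflunomide arrays. Without that array XPC fell by 0.74 ± 0.12 (SE) on the log2 scale, a 1.67-fold lower intensity (limma, adjusted p = 0.0013). With it the difference was -0.81 ± 0.15, 1.75-fold, and the adjusted p in limma was 0.080. The call was lost at -0.90 when the background was estimated from all rows.

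DDB2 is the subunit that recognises ultraviolet photoproducts and hands them to XPC. A stretch of the DDB2 promoter is shown because it was the only window among the members with a match to the full p53 consensus, a pair of half-sites with 0 to 13 bases between them. The sequence is RefSeq's for chr11:47214854-47215003 of GRCh38.p14, plus strand, 120 bases before to 30 bases after the start, with the match in capitals.
DDB2: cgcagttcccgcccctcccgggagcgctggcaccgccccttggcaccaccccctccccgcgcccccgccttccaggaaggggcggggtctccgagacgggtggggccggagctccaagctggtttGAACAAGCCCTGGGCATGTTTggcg
The 21 matching bases ran from position 6 to 26, counting the first transcribed base as position 1. The consensus was found in 10 of 35116 promoter windows in RefSeq, or 0.0285%. Windows ran from 250 bases before to 50 after each start and were searched on both strands. Of the 2 windows of DDB2, only that shown held the match. A match of letters does not show that p53 is bound there. DDB2 had log2 intensities of 5.31, 5.51 and 4.50 in leflunomide, against 6.23, 5.99 and 5.94 in DMSO. Every leflunomide array lay below every DMSO array, and on leflunomide 3 the gene was not above background. Without that array DDB2 fell by 0.65 ± 0.11 on the log2 scale, 1.56-fold (limma, adjusted p = 0.0018). With it the difference was -0.95 ± 0.27 and the adjusted p in limma was 0.17. The call in the 5 arrays was lost at -0.06 with the background estimated from all rows, and at -0.55 without leflunomide 1.

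POLH, DNA polymerase eta, had log2 intensities of 4.63, 4.54 and 4.68 in leflunomide, against 4.79, 4.84 and 4.71 in DMSO. The groups did not overlap, but the leflunomide 3 and DMSO 3 arrays lay close together. In DMSO all 3 arrays gave a POLH signal above background, and in leflunomide the third array alone, by detection p-values that were no ranks among control beads, so the true difference is poorly bounded. The fitted difference was -0.19 in the 5 arrays (95% interval -0.40 to 0.02, limma adjusted p = 0.19) and -0.16 in all 6 (adjusted p = 0.46). The median difference of the 3 p53-induced repair genes was -0.65 in the 5 arrays and -0.81 in all 6.

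ERCC1, a subunit of the nuclease that cuts beside the lesion in the same repair pathway, is not counted among the p53-induced genes. It had log2 intensities of 9.99, 10.04 and 10.49 in leflunomide, against 10.41, 10.11 and 10.41 in DMSO. Leflunomide 1 and 2 lay below the DMSO arrays and leflunomide 3 above them. The difference was -0.29 ± 0.11 without leflunomide 3 (limma, adjusted p = 0.084) and -0.14 ± 0.17 with it (adjusted p = 0.69).

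**Figure D2:**
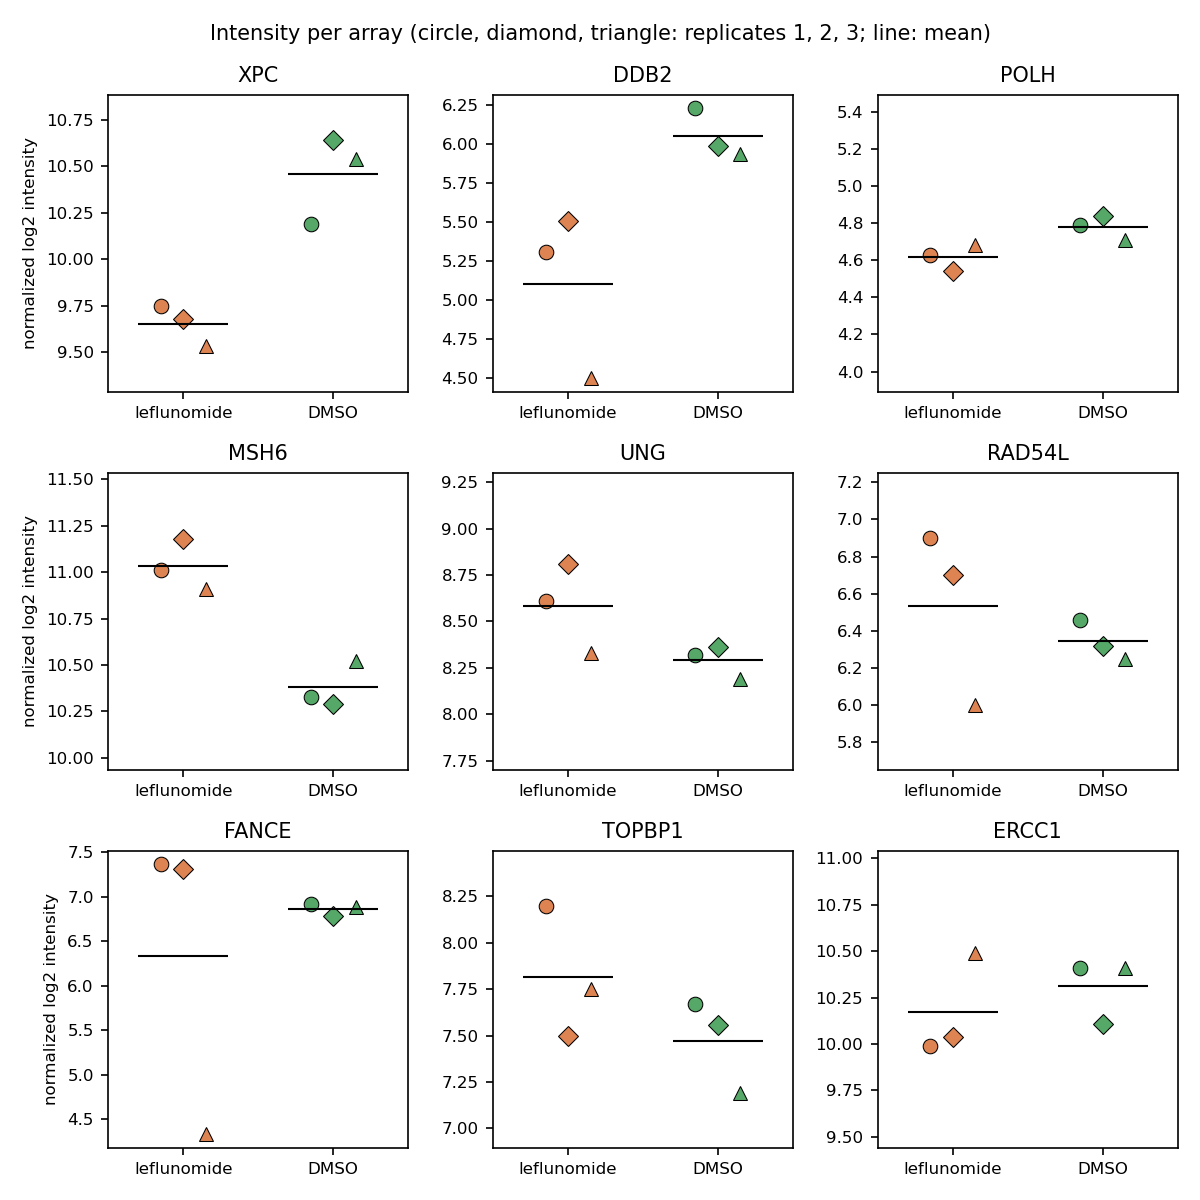
Normalized log2 intensity (y axis, a separate range in each panel) of 9 repair genes on the leflunomide (left) and DMSO (right) arrays, with replicates as symbols and group means as lines. XPC, DDB2, POLH and MSH6 separate the groups on all 3 leflunomide arrays, and the leflunomide 3 value of FANCE, 4.33, lies far below the other 5 arrays.

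Among the S-phase genes, 13 of 18 were tested, and MSH6, RAD54L and UNG rose in the 5 arrays while none was called lower, against 9.66% of all genes called higher and 10.2% called lower. The median difference was 0.21 with 5 arrays and with 6, and 12 of 13 and 11 of 13 differences were above 0, against 6306 and 6142 of 12345 for all genes. Under scaling to a common median the S-phase median was 0.17 and 0.14 above that of all genes, which itself stood at -0.19 and -0.52 there. MSH6 recognises base mismatches left by replication. It had log2 intensities of 11.01, 11.18 and 10.91 in leflunomide, against 10.33, 10.29 and 10.52 in DMSO. All 3 leflunomide arrays, the third among them, lay above all 3 DMSO arrays. Without leflunomide 3 MSH6 rose by 0.72 ± 0.11 on the log2 scale, 1.64-fold (limma, adjusted p = 0.00059). With it the difference was 0.66 ± 0.12, 1.58-fold, and the adjusted p in limma was 0.081. The call in the 5 arrays was lost under scaling to a common median, at 0.67 above the median of all genes.

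UNG, the glycosylase that removes uracil from DNA, had log2 intensities of 8.61, 8.81 and 8.33 in leflunomide, against 8.32, 8.36 and 8.19 in DMSO. Leflunomide 1 and 2 lay above the DMSO arrays, and leflunomide 3 lay within their range. Without leflunomide 3 UNG rose by 0.42 ± 0.10 on the log2 scale, 1.34-fold (limma, adjusted p = 0.013), and with it the difference was 0.29 ± 0.15 (adjusted p = 0.38). A second row, which the file names UNG2 and which RefSeq lists as an earlier name of UNG, differed by 0.01 without and by -0.04 with leflunomide 3, but the symbol UNG2 has also been used for another gene, so whether that row measures UNG is not settled. The UNG row had a detection p over 0.05 on DMSO 3, a p that was no rank among control beads, although its raw signal there was 399.8 against a control bead mean of 58.87. The call was also lost at 0.31 without leflunomide 2, at 0.35 under scaling to a common median and at 0.32 with the background estimated from all rows.

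The promoter stretches of MSH6 and UNG are shown because both genes rose and both carry an E2F word, TTTNNCGC with C or G at each N, on either strand. Both are from RefSeq, GRCh38.p14, plus strand, with the word in capitals. MSH6 is chr2:47783018-47783174 and UNG is chr12:109097979-109098176.
MSH6: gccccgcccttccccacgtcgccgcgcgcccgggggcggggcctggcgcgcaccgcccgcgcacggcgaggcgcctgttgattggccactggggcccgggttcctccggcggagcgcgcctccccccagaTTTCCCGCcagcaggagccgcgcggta
UNG: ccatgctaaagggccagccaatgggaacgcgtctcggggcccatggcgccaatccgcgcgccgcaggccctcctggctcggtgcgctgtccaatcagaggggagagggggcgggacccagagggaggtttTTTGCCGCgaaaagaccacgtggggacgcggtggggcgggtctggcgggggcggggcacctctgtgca
The word stood at positions 4 to 11 of MSH6 and at positions -63 to -56 of UNG. The same words were found in 3.31% of all 35116 windows and in 6.65% of the 8436 tested genes with a window. Of the members with a window, 8 of 15 S-phase genes, 2 of 17 other repair genes and 1 of 3 p53-induced genes, XPC, held one. The S-phase class was drawn from genes known as E2F or G1/S targets, so that share describes the choice of members. RAD54L and FANCE, which also rose, held no such word in these windows. TOPBP1, XRCC2, EXO1, FANCA, FANCD2 and PMS2 held it but passed the threshold in neither direction. CLSPN and FANCC, which were not tested, held it too, so the word was not confined to genes that rose. CCAAT was found in 34.6% of all windows and in 44.0% of the tested genes with a window. Of the members with a window, 19 of 35 held it. They included RAD54L, MSH6 and UNG, which rose, and DDB2, which fell. CHEK1, CHEK2 and XRCC1, which passed the threshold in neither direction, held it too, so CCAAT was not confined to genes that rose.

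RAD54L, a motor protein of strand exchange in homologous recombination, had log2 intensities of 6.90, 6.70 and 6.00 in leflunomide, against 6.46, 6.32 and 6.25 in DMSO. Leflunomide 1 and 2 lay above the DMSO arrays and leflunomide 3 below them. Without leflunomide 3 RAD54L rose by 0.45 ± 0.11 on the log2 scale, 1.37-fold (limma, adjusted p = 0.0095). With it the difference was 0.19 ± 0.24 (adjusted p = 0.69). The call in the 5 arrays was lost at 0.35 without leflunomide 1, at 0.41 under scaling to a common median and at 0.07 with the background estimated from all rows.

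TOPBP1, the scaffold that switches ATR on, had log2 intensities of 8.20, 7.50 and 7.75 in leflunomide, against 7.67, 7.56 and 7.19 in DMSO. Leflunomide 1 was the highest array, and leflunomide 2 lay between DMSO 2 and DMSO 3. Here leflunomide 1 and 2 were 0.70 apart, more than for any other tested member. The difference was 0.37 ± 0.18 without leflunomide 3 (limma, adjusted p = 0.17) and 0.34 ± 0.22 with it (adjusted p = 0.48).

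The other S-phase members did not pass the threshold in either comparison. In the 5 arrays FANCI, which is clamped onto DNA together with FANCD2 at interstrand crosslinks and is named KIAA1794 in the file, differed by 0.28. BLM, a helicase that dissolves crossed strands, differed by 0.25, and BRCA1 and its partner BARD1 by 0.21 each. CHEK1, the kinase below ATR, and FANCD2 each differed by 0.15. The lowest of these were EXO1, a nuclease of end resection and mismatch repair, at 0.10, XRCC2 at 0.02 and FANCA, a Fanconi core subunit, at -0.01. The limma adjusted p of these 9 genes ran from 0.14 to 0.96. FANCA lay near the control beads, at raw signals of 58.77 to 66.66 on the 5 arrays against bead means of 56.48 to 59.61. Its detection p-values were no ranks among control beads, so its true difference is poorly bounded. EXO1 had a detection p over 0.05 on all 3 DMSO arrays and passed the filter through the 3 leflunomide arrays, but these p-values were no ranks among control beads. Its raw DMSO signals of 327.4 to 407.2 lay above control bead means of 56.76 to 59.11, and the 95% interval of its difference was -0.12 to 0.31 in the 5 arrays. With leflunomide 3 included, BLM stood at -0.04, BRCA1 at 0.39 and XRCC2 at 0.59, each moved by a value of that array alone.

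**Figure D3:**
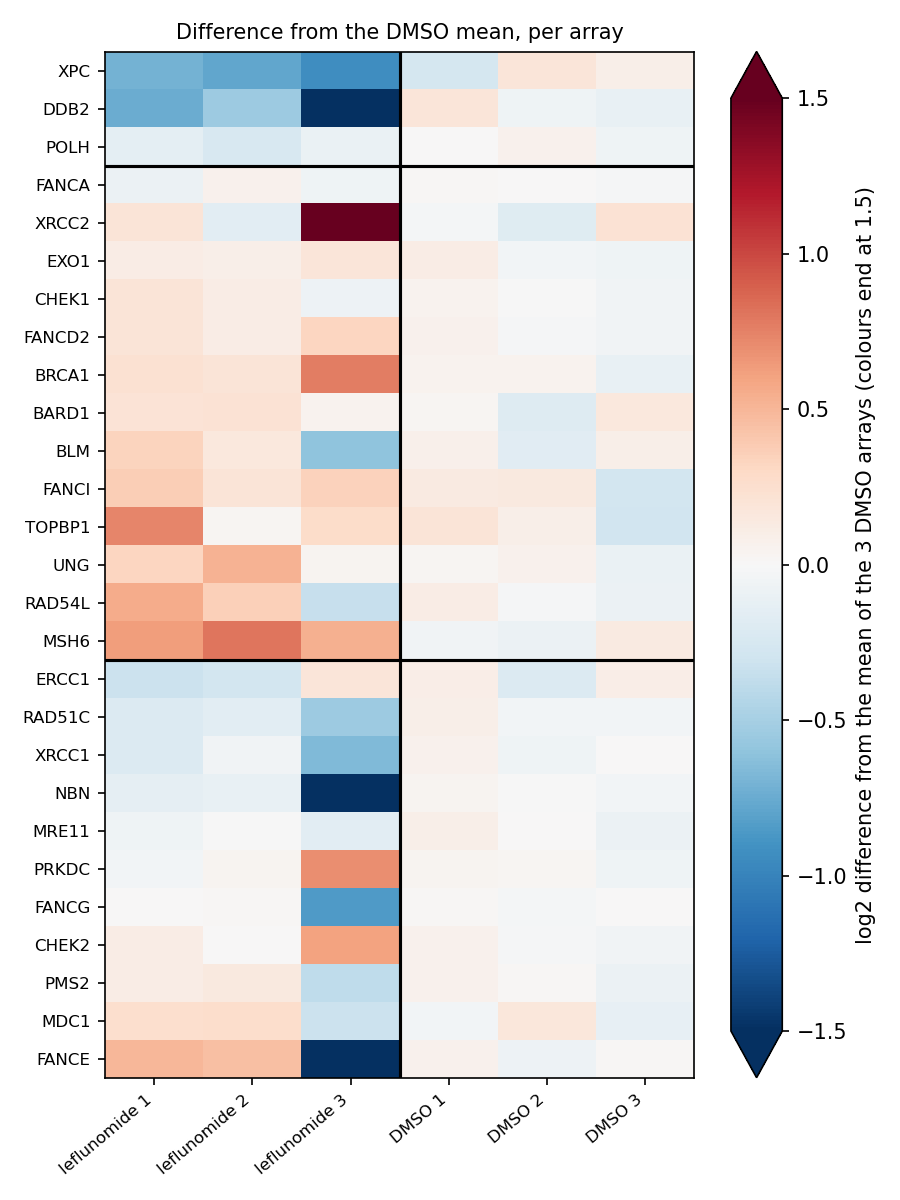
Difference of each array from the mean of the 3 DMSO arrays (colour, log2 units, ending at 1.5) for the 27 tested members (rows, with lines between the p53-induced, S-phase and other repair genes), for the leflunomide and DMSO arrays (columns). XPC and DDB2 are below 0 on all 3 leflunomide arrays and MSH6 is above 0 on all 3, while NBN, FANCE and XRCC2 stand out on leflunomide 3 only.

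Of the 21 other repair genes 11 were tested. FANCE alone passed, without leflunomide 3, or 9.1% of those tested. Of all genes 19.9% were called in those 5 arrays, and 9.66% were called higher. FANCE links the Fanconi core complex to FANCD2. Its log2 intensities were 7.36, 7.31 and 4.33 in leflunomide, against 6.92, 6.78 and 6.88 in DMSO. Leflunomide 1 and 2 lay above the DMSO arrays, and leflunomide 3 lay far below them, at a raw signal of 11.5 units where the negative control beads averaged 36.83. FANCE rose by 0.47 ± 0.10 on the log2 scale without that array, 1.39-fold (limma, adjusted p = 0.0042). With it the difference was -0.53 ± 0.81 (adjusted p = 0.74), so that 1 array set its direction. The call in the 5 arrays was lost at 0.44 without leflunomide 1 and at 0.43 under scaling to a common median.

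The break-sensing and break-joining members gave small differences once leflunomide 3 was left out. In the MRN complex, which detects double-strand breaks, MRE11 (MRE11A in the file) differed by -0.04 and NBN by -0.12 in the 5 arrays, and by -0.08 and -1.49 in all 6. NBN had a raw signal of 38.6 units on leflunomide 3, near the control bead mean there. CHEK2, the kinase below ATM, differed by 0.06 and MDC1, the scaffold that spreads the break signal along chromatin, by 0.25. RAD51C, a homologous recombination protein, differed by -0.18, XRCC1, the scaffold of single-strand break repair, by -0.13 and PMS2, a mismatch repair endonuclease subunit, by 0.13. FANCG, a Fanconi core subunit, differed by 0.01, and PRKDC, the end-joining kinase, had a 95% interval of -0.21 to 0.20. The limma adjusted p of these 9 genes in the 5 arrays ran from 0.12 to 0.99, and the median difference over the 11 tested genes was 0.00 in the 5 arrays and -0.14 in all 6.

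The remaining members gave no test. ATRIP, PALB2 and TIPIN matched no row by symbol or RefSeq synonym. ATR, CLSPN, BRCA2, FANCF, XPA, XRCC4, RAD50 and RAD54B were above background on no array, ATM, BRIP1 and FANCC on 1 leflunomide array each, and FANCL on 1 leflunomide and 1 DMSO array. When these 12 genes were fitted without a detection filter, their differences in the 5 arrays lay between -0.12 and 0.16. The lowest was that of RAD50, a subunit of the MRN complex, and the highest that of FANCC. The limma adjusted p of the 12 genes lay between 0.33 and 0.98. For ATR, the central kinase of replication stress, the difference was 0.01 (95% interval -0.12 to 0.14), in a row at background on every array. The detection p-values of ATM, RAD50, RAD54B and FANCL were not ranks among the control beads, and their raw signals lay above the control bead mean of the same array although that p was not under 0.05 on most arrays.

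Repair genes outside the 42 were read from a wider list of 112 genes in the same pathways. Of these 96 were tested, none passed in limma with 6 arrays (15 had an unadjusted p under 0.05, against 16.9% of all genes), and 10 rose and 5 fell with 5, or 15.6% against 19.9% of all genes, with a median difference of 0.05. In nucleotide excision repair the genes that rose in the 5 arrays were RAD23B, which stabilises XPC, by 0.54 ± 0.09 (limma, adjusted p = 0.0015), RPA3, a subunit of the single-strand binding protein RPA, by 0.48 ± 0.09 (adjusted p = 0.0034), and CUL4B, a scaffold of the ubiquitin ligase that DDB2 joins, by 0.44 ± 0.11 (adjusted p = 0.013). ERCC4, the catalytic partner of ERCC1, fell by 0.39 ± 0.11 (limma, adjusted p = 0.030). ERCC6, a factor of transcription-coupled repair named here after its values were seen, also fell, by 0.38 in the 5 arrays. With 6 arrays ERCC6 differed by 0.05, so its direction depended on the arrays used. XPC and its stabiliser RAD23B moved in opposite directions in the same 5 arrays. REV1, a translesion polymerase, rose by 0.47, CDC25C, a mitotic phosphatase that the checkpoint restrains, by 0.43, SMC3, a cohesin subunit, by 0.40 and H2AX, the histone marked at breaks, by 0.39 (limma, adjusted p = 0.010 to 0.016). A second row for SMC3, named CSPG6 in the file, differed by 0.13, and a second one for REV1 by 0.35. APTX, which clears failed ligation products at breaks, fell by 0.41 (limma, adjusted p = 0.021).

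The classes were set beside genes outside repair that share their regulators. Of 24 p53 target genes outside repair 18 were tested, and 17 fell in the 5 arrays and 7 in all 6, against 10.2% and 0.842% of all genes called lower, with median differences of -1.17 and -1.36. That list was drawn up with results of these samples known, so its direction is not independent of them. CDKN1A, the p53-induced cyclin-dependent kinase inhibitor p21, fell by 2.22 ± 0.10 in the 5 arrays and by 2.13 ± 0.13 in all 6 (limma, adjusted p = 2.3e-08 and 0.0049). MDM2, the ubiquitin ligase that p53 induces and that degrades it, was above background on no leflunomide array and on 1 DMSO array, by detection p-values that were no ranks among control beads, so its detection is uncertain. Taken at that detection, its intensity was at least 1.29-fold lower in the 5 arrays and at least 1.25-fold lower in all 6 (limma without a detection filter, adjusted p = 0.0073 and 0.031). The median of the 3 p53-induced repair genes was thus a smaller shift than that of the other p53 targets, a difference that was not tested.

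Of 34 replication genes 31 were tested, and 14 rose and 1 fell in the 5 arrays, against 9.66% and 10.2% of all genes, with a median difference of 0.33. None passed in limma with 6 arrays, where 11 had an unadjusted p under 0.05, against 16.9% of all genes, and the median was 0.28. The S-phase repair genes had a median of 0.21 in both. PCNA, the sliding clamp, differed by 0.30 ± 0.11 in the 5 arrays (limma, adjusted p = 0.073) and by -1.25 ± 1.25 in all 6, where leflunomide 3 stood at 4.43 and the other 5 arrays between 8.61 and 9.14. In bulk RNA a larger share of cells in S phase and more transcript per cell cannot be told apart.

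**Figure D4:**
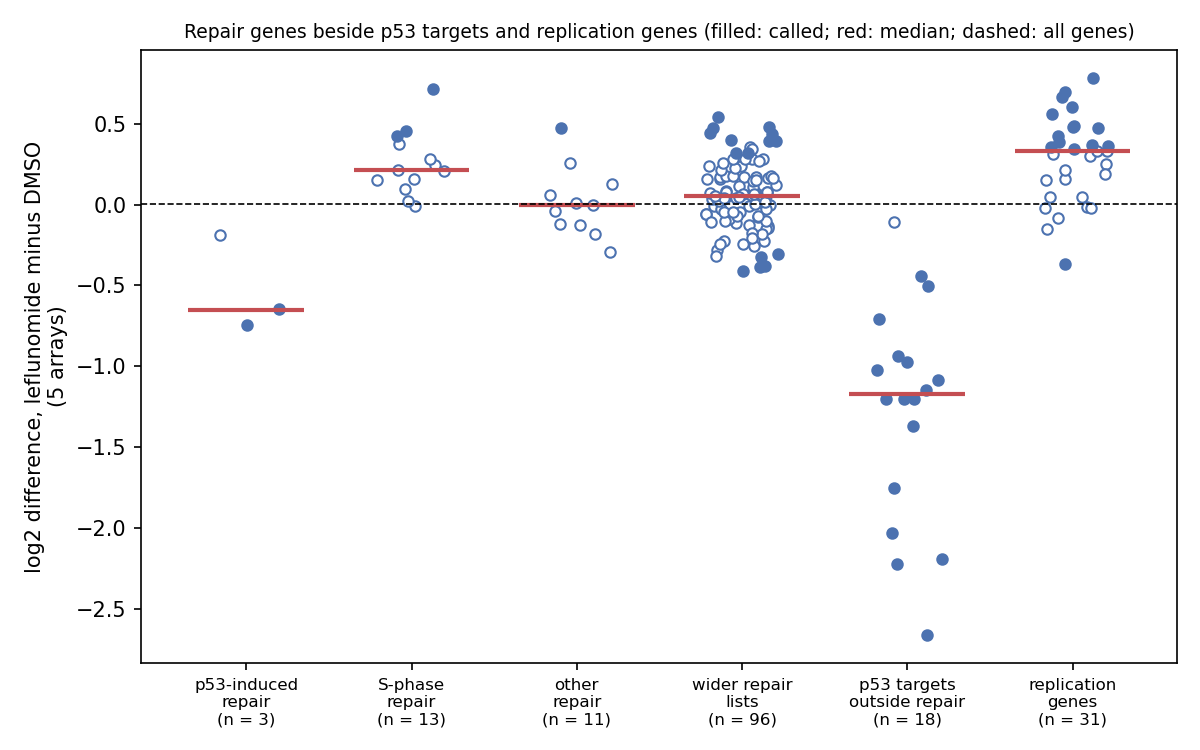
Log2 difference between leflunomide and DMSO in the 5 arrays without leflunomide 3 (y axis) for each tested gene of 6 lists (x axis); filled points passed the limma threshold, red lines are list medians and the dashed line is the median of all genes. The p53-induced repair genes lie below 0 with a median of -0.65, against -1.17 for p53 targets outside repair, and the S-phase repair genes have a median of 0.21 beside 0.33 for replication genes.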

How the data were processed

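Six-array gene expression of A375 cells was read from the authors' deposited non-normalized table, which holds for each of 38275 rows and each array an intensity on a linear scale and a detection p-value. The table comes from GenomeStudio, per the submitters' processing notes; for its version, background settings and probe annotation, the entry is: not given in the sources used here. Detection p-values in the deposited table were ranks among 759 negative control bead types for 32290 rows and, for the remaining rows, taken here to combine probes, were not. Symbols were updated through RefSeq's gene table. The authors' separate value table was used only to check which column is which array.

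Intensities were background-corrected with limma 3.58.1 in R 4.3.3 (normexp, control mean and SD inferred from the rank rows, offset 16), quantile normalized and put on the log2 scale. Genes with a detection p under 0.05 on at least 3 of 6 arrays were tested with lmFit and eBayes, with Benjamini-Hochberg adjustment over all 12345 genes and 0.05 as the threshold. The comparison of 5 arrays used the same normalized values and genes. For several rows of a gene, the row named by the current symbol was used, otherwise the brightest. "At least" folds compare the detected group with the lowest signal above background or the dim gene's own value, whichever was higher. Since nothing says the samples were separate cultures, a p-value here reflects variation among arrays that may be technical, and 3 arrays per treatment limit the precision.

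The members, classes, wider lists and markers were chosen with earlier results of these data known. Values per array are given for XPC, DDB2, POLH and the 8 members with the largest difference in the 5 arrays; of the wider lists the 10 called genes with the largest differences and no overlap were chosen, and outside repair CDKN1A, MDM2 and PCNA. Some results under this rule are not reported here. NBN, XRCC2, BLM and BRCA1 were singled out in the 6 arrays after their values were seen. Promoter windows come from RefSeq, GRCh38.p14, and were searched with Python 3.11.15. The fit was tested on simulated data. Alternatives covered the background correction, offset, normalization, detection filter, variance model, array weights, replicate block and each array left out.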

Additional observations from a re-analysis of the deposited data

How the results depend on the processing

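Values of single genes and of medians are relative to the median of all genes under each setting. With 6 arrays the count of members called was 3 with cyclic loess, 1 with genes detected on all arrays and 5 with array weights, and it ran from 0 to 6 when 1 array was left out, the 6 being without leflunomide 3. FANCE with 6 arrays was 0.47 without leflunomide 3, 0.42 with array weights and -1.03 to -0.50 without any other array. With 5 arrays the count was 2 with the background estimated from all rows (2 higher, 0 lower), 2 with median scaling (0 higher, 2 lower), 0 with an ordinary two-sample test, which called 7 of all genes, and 3 to 8 with 1 array left out, the 3 being without leflunomide 1. At an unadjusted p under 0.05 limma called 3 members with 6 arrays and 9 with 5. The median of the p53-induced repair genes with 6 arrays was -0.07 with the background estimated from all rows. With 5 arrays it was -0.06 under that setting, -0.33 with no background correction and -0.41 with an offset of 50. The setting from all rows includes rows whose detection p is no rank. It put the SD of the control beads at 179 to 250 units, against 5.87 to 13.1 from the rank rows. A weaker correction or larger offset draws low signals together by construction. Other causes were not tested. The count of all genes called was 2453 with 5 arrays and 633 with the background from all rows, 730 with median scaling 807 without leflunomide 1 and 999 without leflunomide 2; with 6 arrays it was 133, and 323 with cyclic loess, 0 with median scaling, 38 with the ordinary test, 2547 with array weights and 3 to 6 when an array other than leflunomide 3 was left out. Same-numbered arrays deviated together for replicates 2 and 3 and not for replicate 1 (correlations of 0.205, 0.215 and -0.009). These deviations were taken from group means that include leflunomide 3, so the correlations cannot decide whether the numbers mark pairs. The numbers were not taken as pairs in the main fits. With a replicate block 0 members were called with 6 arrays and 6 with 5, and 4 and 2298 of all genes. Leaving out leflunomide 1 or 2 from the 5 arrays leaves 1 leflunomide array, which is then assumed to vary like the DMSO arrays. Fitting without a detection filter was chosen after seeing the data, and gave 0 and 6 members called. The ordinary two-sample test, in which no member passed in either comparison, is left out of the counts that follow. Of the member values under the alternatives with 6 arrays, 434 stayed on their side of the threshold, 14 newly passed it, and FANCE reversed without leflunomide 3; with 5 arrays 437 stayed, 4 newly passed it and 12 no longer did. Of those that stayed, 21 values of 11 members with 6 arrays and 9 values of 4 members with 5 arrays changed sign, all without passing the threshold in either setting. Signals near the control beads, as for POLH, FANCA and DDB2, limit what these arrays resolve.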
